A study of Mus musculus with 8 samples.

Results

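Metestrus is the short stage of the mouse estrous cycle that comes after estrus and before diestrus, and its uterine RNA was set here against that of the other 3 stages. Expression is given as CPM, the counts scaled to a common library total after each total was adjusted by the library's TMM normalisation factor. A gene was counted as a metestrus peak when both metestrus libraries lay above all 6 libraries of the other stages in CPM. It was counted as a metestrus trough when both lay below all 6. Of 18114 genes tested, 1894 were peaks (10.5%) and 1687 were troughs (9.31%), so 3581 genes were members by this rule. The members are fixed by the values themselves, so these counts are a description and carry no test. The uterus was taken from female mice of the outbred ICR strain at an age of 6 to 8 weeks, and no genotype or treatment is named for any group. Stage was read from stained vaginal smears, and 2 libraries were made for each of metestrus, proestrus, estrus and diestrus. Messenger RNA of the excised uterus was sequenced with a strand-marking kit. Lining epithelium, glands, stroma, muscle and immune cells therefore share each library, and fewer cells of a type cannot be told apart from less RNA per cell. The labels do not say whether 2 libraries of a stage came from separate mice, so p-values measure the spread between these libraries, which may be technical.

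The estrous cycle is driven by estradiol and progesterone from the ovary. Estradiol climbs before ovulation, stimulates division and secretion in the uterine epithelium and induces the progesterone receptor, while progesterone from the corpora lutea later restrains epithelial growth and prepares the stroma. Between these phases the tissue has to change over: epithelial cells are lost and replaced, fluid is cleared, and white blood cells move in and out.

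The libraries held 17863546 to 21896786 counts, with 21216429 and 21645295 in metestrus. Markers of uterine tissue were present in all 8 libraries (the homeobox gene Hoxa10 at 78.9 to 358 CPM), and Cyp19a1, which marks ovarian granulosa cells, did not exceed 0.0446 CPM. The metestrus libraries resembled each other most, with 837 genes more than 2-fold apart, against 1448 in proestrus, 1282 in estrus and 2713 in diestrus. Diestrus library 1 stood apart from all others through the gland proteases Prss28 and Prss29, at 2039 and 5509 CPM against at most 23.6 CPM in any other library. Fat cell markers were uneven within stages: Adipoq was at 0 and 4.88 CPM in metestrus, 2.26 and 0 CPM in proestrus, and at most 0.100 CPM in estrus and 0 CPM in diestrus.

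Tested against the average of the other 3 stages, 1632 genes were higher in metestrus (9.01% of those tested) and 1678 were lower (9.26%), by edgeR's quasi-likelihood test at an adjusted p under 0.05. Most of these genes also differed from estrus alone. Of the 1632 higher genes, 1557 were also higher than in estrus alone, 716 than in proestrus alone and 27 than in diestrus alone. Of the 1678 lower genes, 1606 were also lower than in estrus, 1155 than in proestrus and 35 than in diestrus. The pairwise comparisons share the metestrus libraries and are not independent of each other. Against diestrus alone, 41 genes were higher in metestrus (0.226%) and 51 were lower (0.282%). With all libraries DESeq2 called 467 higher and 483 lower genes for this pair and limma-voom 34 and 51. The count moved with the library left out, to 1024 higher genes without diestrus library 2, 113 without diestrus library 1, and 2 or 3 without a proestrus or estrus library. Without either metestrus library edgeR gave 0 calls in this pair, and an unadjusted p under 0.05 was reached by 1125 higher and 927 lower genes without metestrus library 1 and by 832 and 789 without library 2. The contrast with the average fell to 3 higher and 4 lower genes without metestrus library 1 and to 2 and 1 without library 2. When a proestrus library was left out it gave 564 and 719 (library 1) or 1205 and 1200 (library 2), and when an estrus library was left out 571 and 554 (library 1) or 665 and 768 (library 2). Without diestrus library 1 or 2 it gave 2422 and 3134 higher genes. In each such fit the lone library of a stage is assumed to vary like the other stages.

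Asking a gene to pass against proestrus, against estrus and against diestrus in the same direction left 3 genes higher (0.0166%) and 13 lower (0.0718%), all of them also members by the CPM rule. The same request left 248 higher and 223 lower genes for proestrus, 665 and 476 for estrus, and 28 and 24 for diestrus. Of the 3 higher genes, Alad encodes delta-aminolevulinate dehydratase, an early enzyme of heme synthesis. Alad stood at 172 and 173 CPM in metestrus, against 85.9 and 79.6 CPM in proestrus, 77.6 and 77.9 CPM in estrus and 77.8 and 77.3 CPM in diestrus. Its 6 other libraries fell within a narrow band that the metestrus libraries did not touch. The log2 fold change over the average of the other stages was 1.12 (SE 0.07, edgeR adjusted p = 0.00417), and those over proestrus, estrus and diestrus were 1.06, 1.15 and 1.15. Alas1, which starts the heme pathway and was looked up after these values were seen, was at 87.9 and 87.4 CPM in metestrus, against 134 and 103 CPM in proestrus, 93.5 and 91.5 CPM in estrus and 109 and 97.8 CPM in diestrus, so by the CPM rule it was a narrow trough. Hdhd3, the gene beside Alad on chromosome 4, was at 17.7 and 16.5 CPM in metestrus, 12.8 and 14.99 CPM in proestrus, 7.60 and 6.09 CPM in estrus and 7.51 and 8.77 CPM in diestrus, so it was a member too but did not share Alad's flat level over the other stages.

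The promoter of Alad is shown because this gene was about level over the other 6 libraries and higher in metestrus. It is RefSeq sequence of build GRCm38.p6 at chr4:62520014-62520313 on the minus strand, from 250 bases before to 50 bases after a transcription start. The gene spans chr4:62509169-62519918 in the GENCODE annotation, so the stretch lies outside that span. RefSeq gave 2 starts for Alad, and the first with the most matches to the marked motif was printed. Capitals mark CACGTG, the E-box read by basic helix-loop-helix factors, among them the clock proteins and MYC; the letters read the same on both strands.
Alad: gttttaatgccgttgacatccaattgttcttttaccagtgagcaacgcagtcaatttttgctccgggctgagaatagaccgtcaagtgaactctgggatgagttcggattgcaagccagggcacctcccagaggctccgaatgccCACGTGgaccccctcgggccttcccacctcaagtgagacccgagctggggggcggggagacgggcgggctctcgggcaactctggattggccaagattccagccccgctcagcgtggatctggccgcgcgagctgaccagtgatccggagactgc
CACGTG was found in 10.9% of the 12375 tested genes that have a RefSeq promoter and in 14% of the metestrus peaks and 12.2% of the troughs. On either strand, neither the full estrogen response element (GGTCA, 3 free bases, TGACC) nor the full progesterone and glucocorticoid response element (AGAACA, 3 free bases, TGTTCT) occurred in any member's promoter, and each occurred in 1 of all tested genes. A match is a stretch of letters and not a binding site.

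Ppp2r2c encodes a regulatory subunit of protein phosphatase PP2A best known from the brain. It stood at 42.4 and 43.5 CPM in metestrus, against 21.8 and 24.02 CPM in proestrus, 1.05 and 1.34 CPM in estrus and 13.6 and 14.4 CPM in diestrus. Every stage occupied its own level, with estrus lowest, and the log2 fold change over the average of the others was 2.56 (SE 0.11, edgeR adjusted p = 0.0011). Ighv8-8 is a variable segment of the immunoglobulin heavy chain, used by B and plasma cells. It was at 13.03 and 9.37 CPM in metestrus, 0.308 and 0.496 CPM in proestrus, 4.70 and 4.34 CPM in estrus and 0.270 and 0.151 CPM in diestrus (log2 fold change 3.92, SE 0.25, edgeR adjusted p = 0.00417). Variable segments resemble each other closely, and how shared reads were counted is not given in the sources used here. Of 150 such segments tested, 20 were metestrus peaks and 1 was a trough, close to the 10.5% of all genes for peaks and below the 9.31% for troughs. Igha, the constant region of antibodies of the IgA class, did not pass the test (edgeR adjusted p = 0.213) and was at 1269.8 and 1288 CPM in metestrus, 406 and 678 CPM in proestrus, 1087 and 822 CPM in estrus and 1174 and 345 CPM in diestrus, which made it a peak by the CPM rule. Ighm, the constant region of IgM, was lower in metestrus, at 22.5 and 24.1 CPM in metestrus, 33.6 and 22.1 CPM in proestrus, 97.2 and 84.6 CPM in estrus and 44.1 and 32.9 CPM in diestrus (log2 fold change -0.98, SE 0.20, edgeR adjusted p = 0.0233).

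The 13 genes lower than in each other stage were Adamdec1, Nr1d2, Arrdc3, Mettl27, Klhl24, Pik3ip1, Heca, Slc23a1, Ip6k2, Spata6, Enpp3, Crot and Lrrc31. Adamdec1, a secreted protease-like protein of the disintegrin family, had the deepest trough. It was at 0.357 and 0.513 CPM in metestrus, 2.05 and 2.98 CPM in proestrus, 26.4 and 20.8 CPM in estrus and 13.1 and 11.3 CPM in diestrus (log2 fold change -4.35, SE 0.30, edgeR adjusted p = 0.00505). Klhl24, a kelch-family adaptor that hands proteins to a ubiquitin ligase, was at 30.9 and 25.0 CPM in metestrus, 85.8 and 74.9 CPM in proestrus, 235 and 254 CPM in estrus and 99.5 and 70.1 CPM in diestrus. Both genes peaked in estrus, the stage just before, and were at their lowest in metestrus. Pik3ip1, an inhibitor of phosphoinositide kinase signalling, was at 9.64 and 7.14 CPM in metestrus, 16.7 and 15.4 CPM in proestrus, 110 and 114 CPM in estrus and 36.1 and 23.4 CPM in diestrus. Enpp3, a cell-surface enzyme that cuts extracellular nucleotides, was at 49.3 and 72.1 CPM in metestrus, 196 and 175 CPM in proestrus, 265 and 202 CPM in estrus and 205 and 331 CPM in diestrus. Slc23a1, a vitamin C transporter of epithelia, was at 7.23 and 8.30 CPM in metestrus, 20.05 and 16.7 CPM in proestrus, 29.0 and 28.9 CPM in estrus and 22.1 and 18.9 CPM in diestrus. Crot, a peroxisomal enzyme that passes medium-chain fatty acids to carnitine, showed the flattest background of the 13, at 42.2 and 42.8 CPM in metestrus, 68.2 and 64.4 CPM in proestrus, 69.7 and 71.4 CPM in estrus and 67.6 and 65.9 CPM in diestrus (log2 fold change -0.68, SE 0.08, edgeR adjusted p = 0.00931). The alpha-arrestin Arrdc3 and the inositol phosphate kinase Ip6k2 were among the smaller troughs, with log2 fold changes of -1.15 (SE 0.08) and -0.70 (SE 0.08).

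Without metestrus library 1 or 2, none of these 16 genes passed in all 3 pairs; Adamdec1 passed without any 1 of the other 6 libraries. Without a proestrus or estrus library at most 1 higher and 2 lower genes were left, and the counts were 17 higher and 36 lower without diestrus library 1 and 276 and 306 without diestrus library 2.

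**Figure D1:**
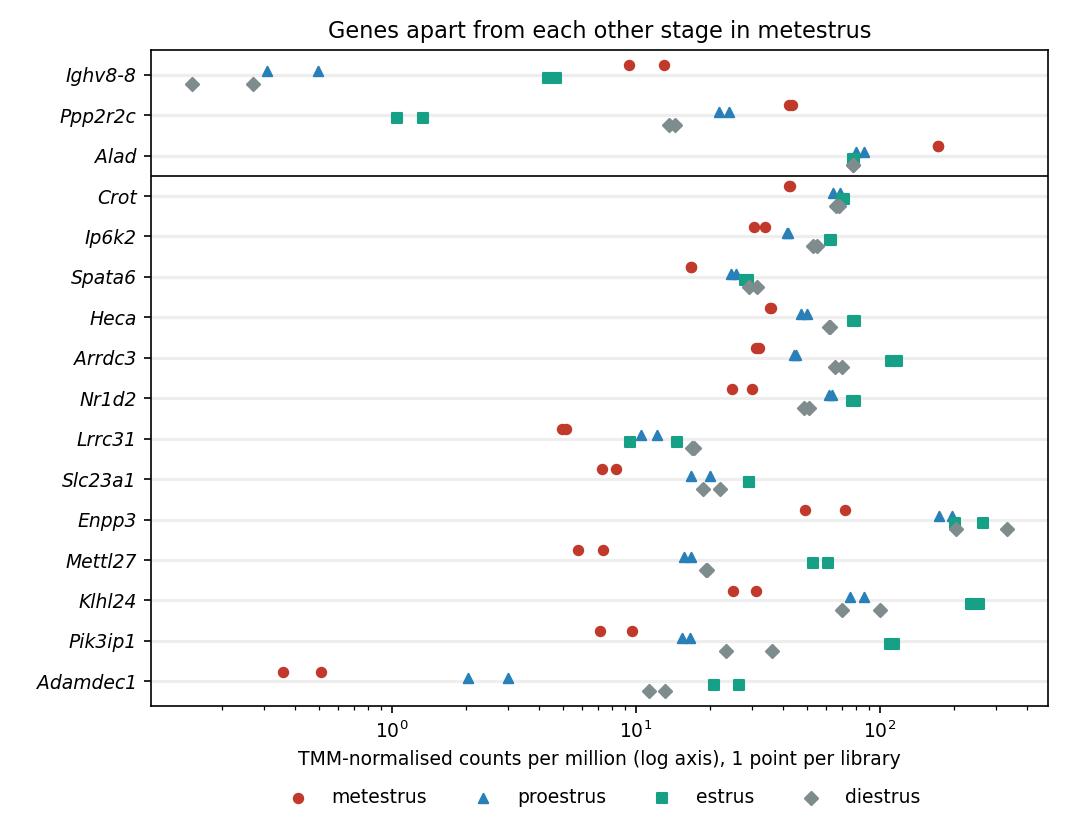
TMM-normalised CPM (log axis) of the 3 genes higher (top) and the 13 genes lower (bottom) in metestrus than in each other stage, with 1 point per library. The red metestrus points lie right of all others in the top block and left of all others in the bottom block, and for Alad and Crot the other 6 libraries cluster closely.

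Most members were close calls. The median peak exceeded the nearest library of another stage 1.1-fold and the median trough lay 1.11-fold below it; 105 peaks and 144 troughs were apart by at least 1.5-fold, and 26 and 50 by at least 2-fold. Just inside the rule were Cpox and Slc25a46 among the peaks and Spop among the troughs, while Usp47 and Fam219b just failed to be peaks and Ecpas and Mpp1 just failed to be troughs. Cpox, an enzyme late in heme synthesis, had 32.8 and 31.9 CPM in metestrus against a highest other value of 31.9 CPM. Protein-coding genes made up 92.2% of the peaks and 80% of the troughs, beside 82.9% of all tested genes. Processed pseudogenes made up 3.8% of the peaks and 10.1% of the troughs, and antisense genes 0.264% and 2.55%, beside 6.91% and 2.27% of all tested genes. The nearest stage was diestrus for 1008 peaks and 910 troughs, proestrus for 779 and 578, and estrus for 107 and 199.

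The members with the widest gap were picked after their values were seen. Wif1, a secreted inhibitor of Wnt ligands, was at 42.01 and 27.3 CPM in metestrus, 0.154 and 0 CPM in proestrus, 0.150 and 0.0516 CPM in estrus and 0.315 and 6.76 CPM in diestrus. Among the other 6 libraries diestrus library 2 was the highest, and it stayed below both metestrus libraries. Brca1, which acts in repair of DNA breaks, was at 27.4 and 35.0 CPM in metestrus, 6.36 and 14.2 CPM in proestrus, 3.10 and 2.32 CPM in estrus and 7.78 and 12.6 CPM in diestrus. Exo1, a repair exonuclease, and Mybl2, a cell-cycle transcription factor, were also among the 12 widest peaks. Hsp90aa1, the inducible heat shock chaperone that holds steroid receptors ready for hormone, was at 1134 and 1055 CPM in metestrus, 530 and 492 CPM in proestrus, 224 and 319 CPM in estrus and 579 and 573 CPM in diestrus. Among the widest troughs, Trp53inp1, a stress gene of the p53 pathway, was at 29.7 and 26.4 CPM in metestrus, 242 and 152 CPM in proestrus, 229 and 186 CPM in estrus and 134 and 69.7 CPM in diestrus. Pdzk1ip1, a small membrane protein of epithelia, was at 7.41 and 8.21 CPM in metestrus, 76.9 and 45.1 CPM in proestrus, 76.6 and 55.3 CPM in estrus and 24.9 and 53.0 CPM in diestrus.

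Most genes of DNA replication were higher in metestrus. All 24 genes of the list were measured, 16 were higher than the average of the other stages and none lower, beside 9.01% and 9.26% of all genes, and 22 were peaks by the CPM rule, beside 10.5%. The median log2 fold change of the list was 1.25, against -0.03 over all tested genes. The Mcm genes encode the helicase that opens DNA at origins. Mcm3 was at 97.5 and 125 CPM in metestrus, 42.2 and 76.3 CPM in proestrus, 20.01 and 25.0 CPM in estrus and 26.4 and 72.9 CPM in diestrus (log2 fold change 1.46, SE 0.37, edgeR adjusted p = 0.0397). Pole, the catalytic subunit of a replicative polymerase, was at 22.2 and 30.4 CPM in metestrus, 5.69 and 11.9 CPM in proestrus, 4.65 and 3.20 CPM in estrus and 12.4 and 17.1 CPM in diestrus (log2 fold change 1.72, SE 0.29, edgeR adjusted p = 0.0165). Library 2 was the higher one in metestrus, proestrus and diestrus for both genes, and no library of another stage reached metestrus. Cdc6 and Cdt1, which load the helicase, rose by 1.95 and 1.17 on the log2 scale. Taken stage by stage, 22 of the 24 genes were higher than in estrus (16.7% of all genes), 1 was higher than in proestrus (6.68%) and none than in diestrus (0.226%), with median log2 fold changes of 2.04, 0.83 and 1.03. The count of 16 was 0 without either metestrus library, 4 without proestrus library 1 and 2 without either estrus library, and 22 and 24 without diestrus library 1 or 2.

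The promoter of Mcm3 is shown because it holds both forms of the site read by E2F factors, which switch on replication genes in late G1. It lies at chr1:20820263-20820562 on the minus strand (RefSeq, GRCm38.p6). Capitals mark GCGGGAAA, the reverse strand of TTTCCCGC, and TTTGGCGC.
Mcm3: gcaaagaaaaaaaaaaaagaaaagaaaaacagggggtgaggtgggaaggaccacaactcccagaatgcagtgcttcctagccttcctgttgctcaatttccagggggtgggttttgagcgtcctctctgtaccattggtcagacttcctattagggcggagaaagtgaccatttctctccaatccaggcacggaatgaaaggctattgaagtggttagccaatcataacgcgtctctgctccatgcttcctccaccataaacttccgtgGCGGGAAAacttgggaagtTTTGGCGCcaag
Of 19 replication genes with a promoter, 4 held TTTCCCGC (21.1%) and 5 held TTTGGCGC (26.3%) on either strand, beside 2.13% and 0.994% of all tested genes with a promoter. Among all metestrus peaks the shares were 3.82% and 2.08%, and among all troughs 1.67% and 0.44%. These motifs were searched after the gene values had been seen.

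Among genes that carry cells into replication fewer passed, and among those of mitosis 1 did. Of 16 measured G1 cyclins, inhibitors of their kinases and partners, Ccnd2, Ccne1, Ccne2, E2f1 and Myc were higher and none lower. Of all genes, 9.01% were higher and 9.26% lower. Ccnd2, a D-type cyclin, was at 97.7 and 104 CPM in metestrus, 35.5 and 35.8 CPM in proestrus, 24.7 and 19.7 CPM in estrus and 52.8 and 72.0 CPM in diestrus (log2 fold change 1.46, SE 0.13, edgeR adjusted p = 0.00703). Myc was not a peak, since its values of 120 and 130 CPM in metestrus lay below the 141 and 193 CPM of diestrus. Of 24 mitosis genes, Mad2l1, a spindle checkpoint protein, was the 1 called higher, beside 9.01% of all genes, yet the list median was 1.34. Mki67, the proliferation marker, shows the pattern: 100 and 123 CPM in metestrus, 53.0 and 103 CPM in proestrus, 37.1 and 13.3 CPM in estrus and 20.4 and 66.2 CPM in diestrus. The 2 libraries of proestrus and of diestrus lay far apart for such genes, and proestrus library 2 overlapped metestrus. Against estrus alone, 19 of the 24 mitosis genes were higher in metestrus, beside 16.7% of all genes. Both counts were 0 without either metestrus library; the first was 2 without proestrus library 1 or either estrus library and 8 without a diestrus library, and the mitosis count reached 21 without diestrus library 2.

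**Figure D2:**
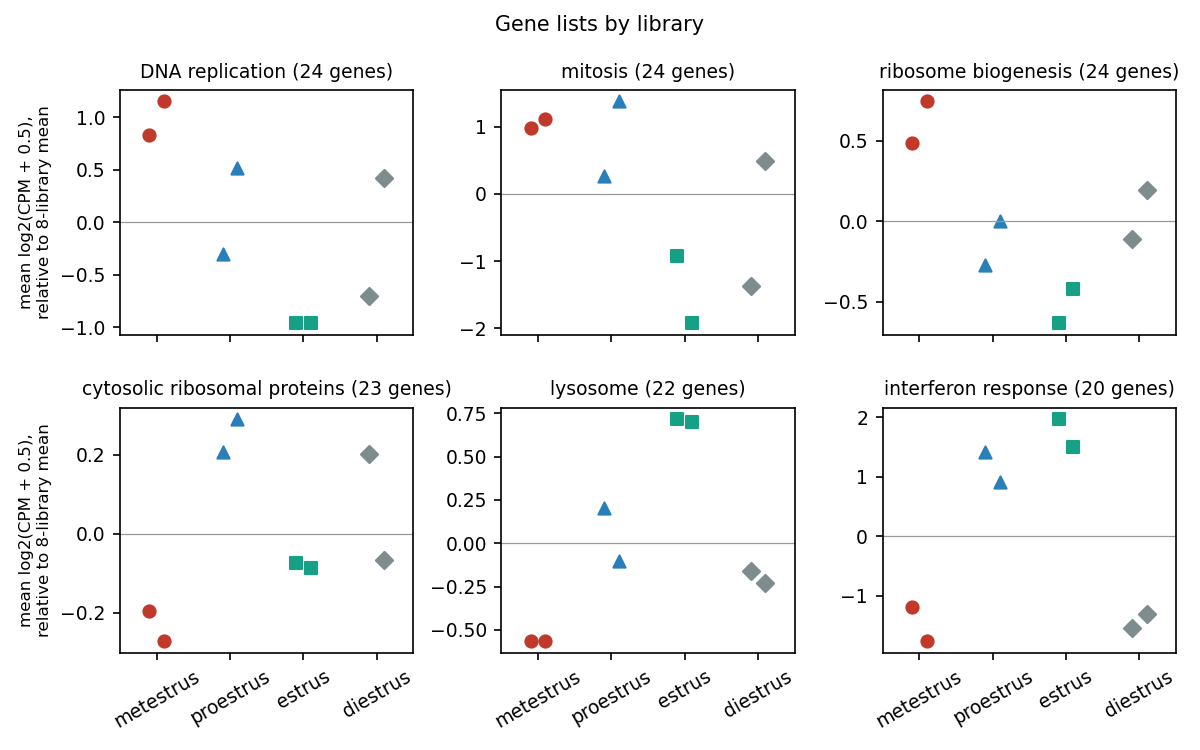
Mean log2(CPM + 0.5) of 6 gene lists in each library, relative to the mean of the 8 libraries, with stages along the horizontal axis and 1 point per library. DNA replication (0.83 and 1.15) and ribosome biogenesis (0.49 and 0.75) were highest in the 2 metestrus libraries, cytosolic ribosomal proteins and lysosome genes were lowest there, and mitosis and interferon response overlapped another stage.

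Genes of ribosome assembly were mostly higher in metestrus, while the few genes of ribosome parts that passed were lower. Of 24 genes of ribosome biogenesis, the nucleolar machinery that makes and trims ribosomal RNA, 20 were higher than the average of the other stages (9.01% of all genes) and none lower, and 23 were peaks by the CPM rule (10.5%). The list median was 0.84 on the log2 scale. Polr1a, the catalytic subunit of RNA polymerase I, was at 94.4 and 103 CPM in metestrus, 47.0 and 52.0 CPM in proestrus, 40.0 and 42.5 CPM in estrus and 66.5 and 79.0 CPM in diestrus (log2 fold change 0.90, SE 0.10, edgeR adjusted p = 0.00814). Nucleolin (Ncl) was at 856 and 1198 CPM in metestrus, 518 and 624 CPM in proestrus, 445 and 488 CPM in estrus and 594 and 790 CPM in diestrus. Diestrus came closest to metestrus for both and did not overlap it. Against single stages, 15 of the 24 genes were higher than in proestrus (6.68% of all genes), 21 than in estrus (16.7%) and none than in diestrus (0.226%). Of 23 cytosolic ribosomal protein genes, none was higher and 4 were lower, Rps14, Rpl10a and Rpl32 among them, and 15 of the 23 were troughs by the CPM rule, beside 9.31% of all genes. Rps14 was at 616 and 521 CPM in metestrus, 917 and 938 CPM in proestrus, 811 and 901 CPM in estrus and 873 and 698 CPM in diestrus (log2 fold change -0.59, SE 0.13, edgeR adjusted p = 0.0311). The median of the ribosomal protein list was -0.32 with TMM scaling, -0.30 with DESeq2 size factors and -0.19 with plain library totals. Plain totals, an alternative chosen after the data were seen, moved the median of all genes to 0.10, and relative to it the list stayed at -0.29. Ribosomal protein genes have many near-identical processed copies, and how reads shared with them were counted is not given. The count of 20 was 0 without either metestrus library and 12 to 23 without another library; the count of 4 was 0 without a proestrus, estrus or metestrus library and 7 and 14 without diestrus library 1 or 2.

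Interferon-induced genes were low in metestrus relative to proestrus and estrus, and not relative to diestrus. Of 20 measured members, 19 were lower than the average of the other stages and none higher, beside 9.26% and 9.01% of all genes. The median log2 fold change was -2.17, and 3 members were troughs by the CPM rule, beside 9.31% of all genes. Counts of 19 lower genes were also found against proestrus (10.3% of all genes lower) and against estrus (19.5%), while no member passed against diestrus (0.282%), where the median was -0.04. Isg15, a ubiquitin-like protein attached to others after interferon, was at 9.29 and 4.62 CPM in metestrus, 99.7 and 76.0 CPM in proestrus, 87.99 and 51.5 CPM in estrus and 5.13 and 7.87 CPM in diestrus (log2 fold change -2.30, SE 0.38, edgeR adjusted p = 0.0155). Metestrus and diestrus overlapped at a low level and the other stages lay clear above. Ifit2, which binds foreign RNA, was 1 of 3 members of the list that were troughs by the CPM rule, at 7.32 and 6.54 CPM in metestrus, 18.9 and 15.04 CPM in proestrus, 67.1 and 76.2 CPM in estrus and 11.0 and 12.7 CPM in diestrus. Irf7, the factor that amplifies interferon production, was at 19.6 and 11.9 CPM in metestrus, 265 and 130 CPM in proestrus, 372 and 272 CPM in estrus and 10.03 and 17.0 CPM in diestrus. Markers of monocytes and macrophages, cells that respond strongly to interferon, are given beside these values. Of 19 such markers, 3 were lower and none higher, beside 9.26% and 9.01% of all genes. Their summed level was 1000.1 and 933 CPM in metestrus and 1419 and 904 CPM in proestrus. In estrus it was 2812.5 and 2896 CPM, and in diestrus 897 and 1218 CPM. The part of these cells in the interferon values was not tested. The count of 19 was 0 without either metestrus library and 17 to 19 without another library.

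The promoter of Isg15 is shown because it carries the repeated GAAA core of the interferon-stimulated response element. It lies at chr4:156200769-156201068 on the minus strand (RefSeq, GRCm38.p6). Capitals mark overlapping matches to the motif GAAA, 2 free bases, GAAA.
Isg15: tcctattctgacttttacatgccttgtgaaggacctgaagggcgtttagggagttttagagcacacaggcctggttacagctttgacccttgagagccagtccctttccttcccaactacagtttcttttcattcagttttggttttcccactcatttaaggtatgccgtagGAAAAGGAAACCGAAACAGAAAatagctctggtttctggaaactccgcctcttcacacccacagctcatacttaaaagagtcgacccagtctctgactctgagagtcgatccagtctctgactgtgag
Of 15 interferon genes with a promoter, 9 held that motif on either strand (60%), beside 3.89% of all tested genes with a promoter, 2.85% of the metestrus peaks and 5.01% of the troughs. This motif too was searched after the values had been seen.

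Most lysosomal genes were lower in metestrus. Of 22 members, 14 were lower than the average of the other stages (9.26% of all genes) and none higher, 12 were troughs by the CPM rule (9.31%), and the median log2 fold change was -0.73. Npc2, which carries cholesterol out of lysosomes, was at 133 and 132 CPM in metestrus, 225 and 193 CPM in proestrus, 430 and 451 CPM in estrus and 210 and 197 CPM in diestrus (log2 fold change -1.004, SE 0.10, edgeR adjusted p = 0.00765). Ctsl, a cathepsin protease, was at 223 and 214 CPM in metestrus, 2304 and 1139 CPM in proestrus, 3775 and 2558 CPM in estrus and 478 and 276 CPM in diestrus. Neither gene overlapped another stage, and estrus was highest for both. Ctsa and Neu1, a peptidase and a sialidase of the same enzyme complex, fell by 1.15 and 0.90 on the log2 scale. Against single stages, 19 of 22 were lower than in estrus (19.5% of all genes), 8 than in proestrus (10.3%) and none than in diestrus (0.282%). The count of 14 was 0 without either metestrus library and 7 to 18 without another library, with 7 and 8 without estrus library 1 or 2 and 8 without proestrus library 1. The macrophage marker sums given above were also highest in estrus, and their part in the lysosomal values was not tested.

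Among genes of cell death and of the epithelium, all those that passed were lower, beside 9.26% of all genes. Of 24 apoptosis genes, Bmf, Trp53inp1, Bcl2l11, Casp6, Birc3, Casp12 and Bcl2l1 were lower none was higher and 17 did not pass; this list mixes killers with protectors, and Birc3 and Bcl2l1 protect cells. Bmf, a trigger of the mitochondrial death pathway, was at 30.5 and 23.8 CPM in metestrus, 113 and 133 CPM in proestrus, 248 and 228 CPM in estrus and 74.3 and 41.5 CPM in diestrus (log2 fold change -2.14, SE 0.26, edgeR adjusted p = 0.00949). Of 22 epithelial genes, 11 were lower, none was higher and 11 did not pass, with a median log2 fold change of -0.90. The adhesion protein Epcam was at 165 and 169 CPM in metestrus, 663 and 533 CPM in proestrus, 484 and 460 CPM in estrus and 163 and 117 CPM in diestrus. Krt8, a keratin of simple epithelia, was at 320 and 291 CPM in metestrus, 1353 and 1143 CPM in proestrus, 1003 and 848 CPM in estrus and 145 and 275 CPM in diestrus. Of the 22 genes, 14 were lower than in proestrus (10.3% of all genes), 13 than in estrus (19.5%) and none than in diestrus (0.282%). The list median over diestrus was 0.28 on the log2 scale, yet 6 of the 22 were troughs by the CPM rule, beside 9.31% of all genes. Elf3, an epithelial transcription factor, was the 1 member higher than in diestrus, at 139 and 94.8 CPM in metestrus against 34.7 and 34.1 CPM in diestrus. Of 20 complement genes 8 were lower, C3 among them. All 3 counts were 0 without either metestrus library. Without estrus library 1, estrus library 2 or proestrus library 1 the epithelial count was 3, 6 and 4 and the complement count 3, 4 and 5; without diestrus library 1 the apoptosis count was 11.

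**Figure D3:**
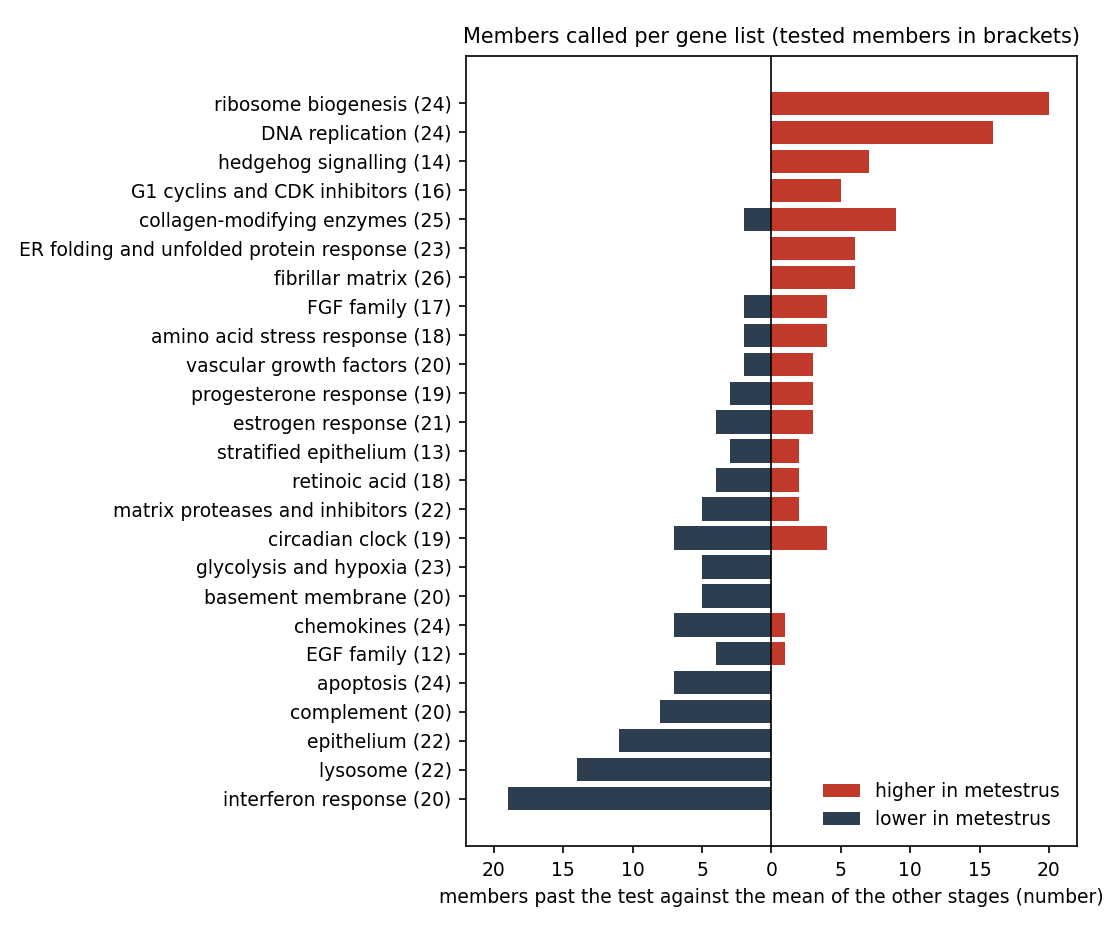
Members of each gene list that passed the test against the average of the other stages, higher in metestrus to the right and lower to the left, for the lists with at least 5 calls; the number tested stands in brackets. Ribosome biogenesis (20 of 24) and DNA replication (16 of 24) hold higher calls alone, and interferon response (19 of 20), lysosome (14 of 22) and epithelium (11 of 22) lower calls alone.

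Of 14 measured genes of hedgehog signalling, which runs from epithelium to stroma, 7 were higher than the average of the other stages, beside 9.01% of all genes, and none was lower, among them the ligand Ihh, the receptor Ptch1, the ligand-binding protein Hhip and the transcription factors Gli1, Gli2 and Gli3. Ihh, the progesterone-responsive ligand of the uterine epithelium, was at 35.7 and 35.4 CPM in metestrus, 0.154 and 0.546 CPM in proestrus, 0.150 and 0.310 CPM in estrus and 8.46 and 92.4 CPM in diestrus (log2 fold change 4.46, SE 0.80, edgeR adjusted p = 0.0181). Its target Gli1 was at 156 and 143 CPM in metestrus, 10.2 and 18.1 CPM in proestrus, 2.85 and 0.929 CPM in estrus and 52.3 and 178 CPM in diestrus. Metestrus fell between the 2 diestrus libraries for both, so neither is a metestrus peak. Against single stages, 6 of the 14 were higher than in proestrus (6.68% of all genes), 9 than in estrus (16.7%) and none than in diestrus (0.226%). Gli2 was a peak, at 79.8 and 68.3 CPM in metestrus against 50.6 and 61.2 CPM in diestrus and less elsewhere. In the Wnt list 3 of 26 genes were higher, Wif1, the negative regulator Axin2 and the receptor Lgr5, and Rspo3, a Wnt amplifier, was lower. That share of higher genes is near the 9.01% of all genes, and against estrus 5 Wnt genes were higher and 5 lower. Both counts were 0 without either metestrus library. The hedgehog count was 2 to 4 without a proestrus or estrus library, and the Wnt count was 8 and 12 without diestrus library 1 or 2.

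Of 25 collagen-modifying enzymes 9 were higher and 2, Lox and P3h2, were lower, and of 26 fibrillar matrix genes 6 were higher and none lower, beside 9.01% of all genes higher and 9.26% lower. Fkbp14, which helps collagen fold in the endoplasmic reticulum, was at 92.2 and 82.2 CPM in metestrus, 62.0 and 67.7 CPM in proestrus, 5.55 and 6.19 CPM in estrus and 58.8 and 64.0 CPM in diestrus (log2 fold change 1.61, SE 0.09, edgeR adjusted p = 0.00289). Lox, which cross-links collagen, was at 99.4 and 84.2 CPM in metestrus, 426 and 416 CPM in proestrus, 554 and 506 CPM in estrus and 124 and 62.6 CPM in diestrus (log2 fold change -1.58, SE 0.26, edgeR adjusted p = 0.0157). The 2 enzymes thus ran opposite ways between metestrus and estrus. Against estrus alone, 15 enzymes and 15 fibrillar genes were higher in metestrus, beside 16.7% of all genes. Against proestrus 2 enzymes and 1 fibrillar gene were higher (6.68% of all genes), and against diestrus 1 and 0 (0.226%). Lower calls were 2 and 2 against estrus (19.5% of all genes), 2 and 0 against proestrus (10.3%) and 0 and 1 against diestrus (0.282%). Serpinh1, a chaperone of collagen, was at 2504 and 1896 CPM in metestrus, 1209 and 1271 CPM in proestrus, 413 and 493 CPM in estrus and 1867 and 1617 CPM in diestrus. Of 23 endoplasmic reticulum folding genes 6 were higher (9.01% of all genes), Dnajb11 and Hsp90b1 among them, while the main chaperone Hspa5 did not pass. All 3 counts of higher genes were 0 without either metestrus library. The enzyme count was 3 without estrus library 1 and 5 without proestrus library 1; the fibrillar count was 2 without proestrus library 1 and 11 and 12 without diestrus library 1 or 2; the folding count was 1 to 3 without a proestrus or estrus library and 10 and 9 without diestrus library 1 or 2.

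**Figure D4:**
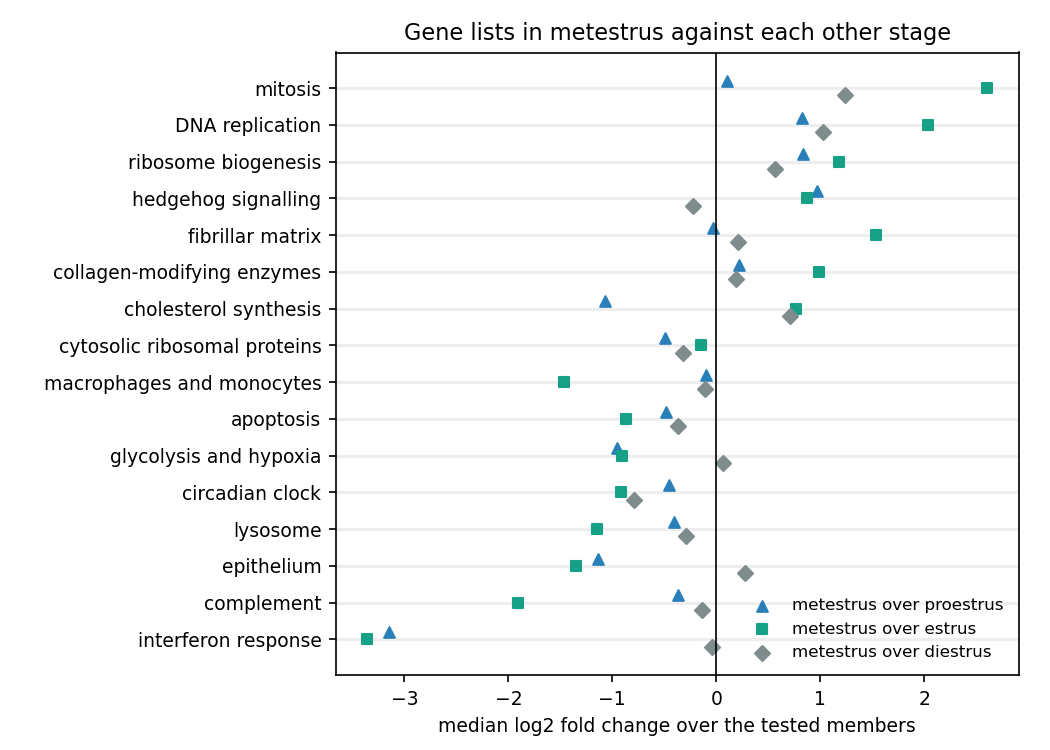
Median log2 fold change of 16 gene lists for metestrus over proestrus, over estrus and over diestrus, with 1 marker per comparison. Replication (0.83, 2.04 and 1.03) and ribosome biogenesis (0.84, 1.18 and 0.57) lie right of 0 in all 3 comparisons, whereas interferon response lies near 0 against diestrus alone. All 3 comparisons share the metestrus libraries.

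Clock genes differed in both directions. Of 19 members, Arntl, Clock, Per2 and Cry1 were higher and Per3, Nr1d1, Nr1d2, Dbp, Tef, Rora and Bhlhe40 were lower than the average of the other stages. Of all genes, 9.01% were higher and 9.26% lower. In many mouse tissues Arntl and Clock, which activate the loop, run opposite in time to Nr1d1, Nr1d2 and Dbp. Nr1d2, the REV-ERB beta repressor, was 1 of the 13 genes lower than in each other stage, at 29.9 and 24.8 CPM in metestrus, 62.0 and 63.5 CPM in proestrus, 76.4 and 78.8 CPM in estrus and 51.1 and 48.9 CPM in diestrus (log2 fold change -1.19, SE 0.10, edgeR adjusted p = 0.00634). Dbp, an output factor, was at 9.999 and 7.57 CPM in metestrus, 25.0 and 26.3 CPM in proestrus, 46.9 and 39.9 CPM in estrus and 12.6 and 17.8 CPM in diestrus. Clock was at 112 and 112 CPM in metestrus, 78.1 and 75.0 CPM in proestrus, 61.6 and 58.9 CPM in estrus and 99.5 and 90.4 CPM in diestrus. None of the 3 overlapped another stage. By the CPM rule 6 of the 19 clock genes were troughs, beside 9.31% of all genes, and 2 were peaks, beside 10.5%. Clock genes turn over with the hour of the day, the labels give no hour of collection, and stage and hour cannot be told apart here. The counts of 4 and 7 were 0 without either metestrus library, and the 4 became 1 without proestrus library 1 or either estrus library and 2 without proestrus library 2.

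The promoter of Nr1d2 is shown as that of the only listed clock gene that was lower than in each other stage. It lies at chr14:18239057-18239356 on the minus strand (RefSeq, GRCm38.p6), and capitals mark ATTGG, the reverse strand of the CCAAT box read by the factor NF-Y.
Nr1d2: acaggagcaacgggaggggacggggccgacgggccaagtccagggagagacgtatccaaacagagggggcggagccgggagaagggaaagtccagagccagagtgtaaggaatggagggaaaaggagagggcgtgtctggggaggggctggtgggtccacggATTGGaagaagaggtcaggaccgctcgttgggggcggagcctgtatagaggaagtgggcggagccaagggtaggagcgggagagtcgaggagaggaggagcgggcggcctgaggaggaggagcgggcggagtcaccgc
CCAAT was found in the promoters of 7 of the 10 genes lower than each other stage for which RefSeq gave one. It was found in 1 of the 2 higher genes and in 13 of 16 clock genes (81.2%), beside 42.2% of all tested genes. Among all metestrus troughs the share was 42.5% and among all peaks 42%, close to that of all tested genes. The forkhead site GTAAACAA was found in 2.02% of the troughs, 0.694% of the peaks and 1.04% of all tested genes, a search added after the values had been seen.

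The progesterone receptor itself was high in metestrus. Pgr was at 480 and 478 CPM in metestrus, 385 and 337 CPM in proestrus, 69.0 and 60.7 CPM in estrus and 237 and 196 CPM in diestrus (log2 fold change 1.48, SE 0.11, edgeR adjusted p = 0.00505). All 6 other libraries lay below, although the pairwise difference from proestrus did not pass (edgeR adjusted p = 0.0936). Fkbp4, a co-chaperone of steroid receptors, was a peak and was at 786 and 732 CPM in metestrus, 435 and 391 CPM in proestrus, 149 and 259 CPM in estrus and 334 and 479 CPM in diestrus. Fkbp5, another such co-chaperone, did not pass (edgeR adjusted p = 0.713) and was not a peak, at 24.95 and 27.2 CPM in metestrus, 19.6 and 18.1 CPM in proestrus, 14.4 and 18.1 CPM in estrus and 98.02 and 53.8 CPM in diestrus. Of 4 FAM3 cytokine-like genes, Fam3b and Fam3d were lower than the average, beside 9.26% of all genes. Against single stages, 3 of the 4 were lower than in proestrus (10.3% of all genes), 3 than in estrus (19.5%) and none than in diestrus (0.282%). Fam3d, listed under its older symbol Oit1, was at 7.59 and 7.91 CPM in metestrus, 88.1 and 74.3 CPM in proestrus, 95.5 and 95.9 CPM in estrus and 23.8 and 6.71 CPM in diestrus, and shared its low level with diestrus library 2. Of the 175 named genes called with all libraries, 3 were still called without metestrus library 1 and 3 without library 2, namely Ppp2r2c, Bpifb5 and Lrmp in both cases.

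Among marker lists of other cell types, none of 18 smooth muscle, 15 granulocyte and mast cell, 14 T and NK cell, 5 blood or 5 ovary and oviduct genes passed in either direction, with 9.01% of all genes higher and 9.26% lower. The summed smooth muscle level was 18257 and 14555 CPM in metestrus, 20185 and 15086 CPM in proestrus, 18442 and 16375 CPM in estrus and 30646 and 13369 CPM in diestrus. Few genes passed in most of the other lists: 2 of 17 endothelial, 1 of 14 dendritic cell, 1 of 8 fat cell and 1 of 7 mesothelial genes were higher, and 1 of 14 stromal and 1 of 7 B and plasma cell genes were lower. Of 10 genes of neurons and glia 3 were higher and 1 was lower, and of 13 genes of stratified epithelium 2 were higher and 3 were lower.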

How the data were processed

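The deposited table holds whole-number read counts per gene for 8 uterus libraries, not normalized. Alignment with STAR and counting with featureCounts on GRCm38/mm10 are named in the submitters' processing notes; for versions, the strand setting and reads shared between genes, the sources used here give nothing. Gene identifiers were named from the GENCODE M21 annotation, which held 52058 of the 52308 listed genes. Genes were kept by edgeR's filterByExpr (18114 tested), libraries were scaled by TMM factors (0.8975 to 1.111), and CPM values are scaled with them. A quasi-likelihood fit over all 4 stages (edgeR 4.0.16 in R 4.3.3) tested metestrus against the average of the other 3 stages and against each; p-values were adjusted by the Benjamini-Hochberg method over all genes tested, with a threshold of 0.05. A gene counted as different from each stage passed in all 3 pairs in 1 direction. The fit was tested on simulated data for 17657 genes. The contrast with the average recovered 90% of 4-fold and 54% of 2-fold changes, with 6 false calls among 150. The request for all 3 pairs recovered 76% and 22%, with 1 false call among 99. The simulation changed 100 genes 4-fold and 100 genes 2-fold in metestrus and held the other 3 stages equal for every gene. The spread of each gene was set from the trend over expression. The real libraries differ on these points, so the rates are not error rates of the results above.

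The members and gene lists were chosen with earlier results of these data known. Genes were named by rule: up to 15 peaks and 15 troughs that passed in all 3 pairs, with a mean of at least 5 CPM in metestrus (peaks) or in each other stage (troughs), the 10 smallest p-values, the steroid receptors and Fam3d, and up to 4 members per list by smallest p. Outside it, Alas1, Arntl, Bcl2l1, Bhlhe40, Birc3, Brca1, Casp12, Cdt1, Clock, Cry1, Ctsl, Exo1, Fkbp5, Gli3, Hdhd3, Hhip, Hoxa10, Hsp90aa1, Hspa5, Irf7, Isg15, Krt8, Mcm3, Mki67, Mybl2, Myc, Ncl, Nr1d1, Pdzk1ip1, Per2, Prss28, Prss29, Ptch1 and Rora were named after their values were seen. Some genes are not reported here. Alternatives were DESeq2 (1.42.0) and limma-voom (limma 3.58.1), other scalings and filters, a minimum fold, a replicate block and each library left out. Figures were drawn with matplotlib 3.10.9.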

Additional observations from a re-analysis of the deposited data

How the results depend on the processing

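Counts of genes higher and lower than the average, 1632 and 1678, stayed within 1.5 times under DESeq2 size factors, library totals, DESeq2, limma-voom, other filters and a replicate block (1889 and 1830), but were 91 and 153 with a minimum fold of 1.5 and 1 and 0 when the 6 other libraries were pooled into 1 group. Leaving out 1 library at a time gave 2 to 3134 higher and 1 to 2609 lower genes. Library totals, chosen after seeing the data, gave 64.7% higher among all calls, against 49.3% with TMM. Genes past all 3 pairs, 3 higher and 13 lower, were 93 and 102 with DESeq2, 25 and 48 with no filter on low counts, 7 and 8 with library totals, 0 and 1 with the minimum fold and 4 and 13 with the replicate block; limma-voom gave 5 higher. The block kept all 3 higher genes but only 6 of the 13 lower: Crot, Enpp3, Ip6k2, Lrrc31, Nr1d2, Slc23a1 and Spata6 missed the threshold, with a largest edgeR adjusted p of 0.0558 to 0.0668. Replicate numbers did not pair the libraries (correlations of same-numbered deviations between stages from -0.0926 to 0.145). Leaving out 1 library gave 0 to 276 and 0 to 306. Peaks and troughs, 1894 and 1687, were 105 and 144 with a gap of at least 1.5-fold, 2377 and 1157 with library totals, and 2009 to 3382 and 1638 to 2871 with 1 library left out. With 2 libraries a stage, 4 residual degrees of freedom carry every test, and calls rested most on the metestrus libraries; the cause was not tested.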

Other observations

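Several other gene groups of the uterus held calls in both directions against the average of the other stages, for which 9.01% of all genes were higher and 9.26% lower. Of 18 retinoic acid genes, Stra6 and Aldh1a3 were higher and 4 were lower. Stra6, the membrane receptor that takes up vitamin A, was at 95.2 and 75.7 CPM in metestrus, 5.95 and 5.46 CPM in proestrus, 3.75 and 3.36 CPM in estrus and 43.2 and 195 CPM in diestrus (log2 fold change 2.67, SE 0.45, edgeR adjusted p = 0.016). Diestrus library 2 lay above both metestrus libraries and diestrus library 1 below them. Of 12 measured EGF family genes, Nrg2 was higher and 4 were lower. Erbb3, a receptor of neuregulins, was at 30.1 and 27.6 CPM in metestrus, 142 and 115 CPM in proestrus, 129 and 95.1 CPM in estrus and 62.1 and 39.8 CPM in diestrus (log2 fold change -1.64, SE 0.22, edgeR adjusted p = 0.0114), and its ligand Nrg2 was at 44.2 and 44.7 CPM in metestrus, 24.8 and 30.7 CPM in proestrus, 25.1 and 17.6 CPM in estrus and 7.65 and 11.3 CPM in diestrus (log2 fold change 1.32, SE 0.19, edgeR adjusted p = 0.0118). Metestrus had the lowest values of the receptor and the highest of the ligand, with no overlap for either. Of 22 measured Hox genes, Hoxd8 and Hoxd9 were higher and Hoxb8 was lower, shares close to or below those of all genes. Without either metestrus library these lists gave 0 calls, and the 4 lower retinoic acid genes were also 0 without proestrus library 1 and 2 without proestrus library 2 or an estrus library; the 4 lower EGF family genes were 2 without estrus library 1.

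Genes of the basement membrane under the epithelium were lower in 5 of 20 cases and higher in none, and the count was 0 without either metestrus library and 2 or 3 without a proestrus or estrus library. Lamb3, a chain of the laminin that anchors epithelia, was at 14.6 and 16.9 CPM in metestrus, 126 and 113 CPM in proestrus, 162 and 166 CPM in estrus and 21.01 and 12.9 CPM in diestrus (log2 fold change -2.14, SE 0.21, edgeR adjusted p = 0.00765). Diestrus overlapped metestrus at that low level. Against the average of the other stages, 9.26% of all genes were lower and 9.01% higher, the background for each list count in this paragraph. Of 23 glycolysis and hypoxia genes 5 were lower and none higher; the count was 0 without either metestrus library, 2 without proestrus library 1 or estrus library 1, 3 without estrus library 2 and 8 without diestrus library 2. Egln3, an oxygen-sensing hydroxylase, was at 11.7 and 11.2 CPM in metestrus, 253 and 169 CPM in proestrus, 494 and 327 CPM in estrus and 7.38 and 5.598 CPM in diestrus (log2 fold change -2.85, SE 0.26, edgeR adjusted p = 0.00705), with diestrus lower still. Of 18 prostaglandin genes 1 was higher and 3 were lower, and without either metestrus library there were 0 calls. Ptger4, a receptor of prostaglandin E2, was at 36.5 and 39.8 CPM in metestrus, 51.5 and 54.3 CPM in proestrus, 41.7 and 41.8 CPM in estrus and 70.8 and 65.5 CPM in diestrus, and its metestrus values lay below all others. Apln, the ligand apelin that guides vessels, was higher, at 32.2 and 42.7 CPM in metestrus, 0.974 and 1.34 CPM in proestrus, 1.801 and 2.27 CPM in estrus and 3.78 and 43.3 CPM in diestrus (log2 fold change 3.29, SE 0.68, edgeR adjusted p = 0.0247), and diestrus library 2 overlapped it.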
